A study of Mus musculus with 96 samples.

Results

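The libraries described here are the 48 tamoxifen libraries of a 96-library RNA-seq series of mouse ventricle, set out as the second against the first circadian cycle. They were chosen by their titles: 24 libraries at ct42 to ct62 formed the second cycle and 24 libraries at ct18 to ct38 the first, where ct is the labels' time code and is read as circadian time in hours. Sampling was every 4 h, so each of 6 times of day occurred once in each cycle, 24 h apart, with 2 F and 2 M libraries at every time. Each second-cycle library was set against the first-cycle libraries of the same letter (F or M, read as female and male) and the same time of day, which gave 12 strata of letter and time of day. All mice carried the iCSBmal1 KO genotype, an inducible knockout of Bmal1 (gene symbol Arntl) in cardiomyocytes, the vehicle animals too. The second-cycle and first-cycle groups received tamoxifen, which induces the knockout, and the other 48 libraries came from vehicle animals. An effect of the drug itself and an effect of the knockout therefore cannot be told apart, and no source used here names the Cre promoter or the ages. Ventricle RNA holds RNA of every cell type, and in bulk samples fewer cells of a type and less RNA per cell cannot be told apart. Nothing in the labels ties each library to its own animal, and the p-values therefore rest on the spread from library to library, which may be technical.

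The circadian clock is a transcriptional feedback loop. BMAL1 and CLOCK bind E-box elements and drive the Per, Cry and Nr1d genes and outputs such as Dbp, while PER and CRY proteins repress that drive and the NR1D (REV-ERB) receptors repress Arntl itself. DBP, TEF and HLF act in turn through D-box elements. In the heart the cardiomyocyte clock is known for daily rhythms in metabolism, ion channels and growth signalling, and a comparison of successive cycles asks whether levels drift and whether rhythms lose height or shift.

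Libraries held 16609302 ± 1486733 counts in the second cycle and 15106848 ± 1910756 in the first (SD, n = 24 each). The targeted gene was checked first. Arntl ran from 1.31 to 31.7 CPM (counts scaled to library depth) with a median of 13.8 in the 48 tamoxifen libraries, against 0.992 to 56.3 CPM with a median of 14.2 in the 48 vehicle libraries. The ranges over all times overlapped, but at ct26, ct34, ct50 and ct62 the treatments did not, while at the other times they did. At ct26 and ct50, its high time, tamoxifen libraries held 24.48 to 31.73 CPM and vehicle libraries 36.97 to 56.31 CPM. At ct34 tamoxifen libraries held 5.169 to 12.96 CPM and vehicle libraries 0.9918 to 1.932 CPM. A count over the whole gene does not isolate the deleted part, so it checks the labels only in part. Arntl lay under 6 CPM in 5 tamoxifen and 16 vehicle libraries. The 5 tamoxifen libraries were Tam_F_ct58_565, Tam_M_ct54_556 and Tam_M_ct58_562 in the second cycle, and Tam_M_ct34_526 and Tam_M_ct38_531 in the first (named by their titles). This limit lies on a clock gene near its daily low. Leaving out the libraries at ct34, ct38 and ct58 therefore also removes part of the rhythm's trough. At ct54 the other tamoxifen libraries held 17.77 to 21.12 CPM, so Tam_M_ct54_556 (1.309 CPM) was not at such a time. Tam_F_ct58_565 held 2.845 CPM of Arntl and 39.4 CPM of the clock gene Ciart. Vehicle libraries at ct58 held 1.113 to 6.302 CPM of Arntl and 22.25 to 37.67 CPM of Ciart. At ct54 vehicle libraries held 10.02 to 25.28 CPM of Arntl and 6.415 to 14.61 CPM of Ciart. Tam_M_ct54_556 lay outside both ranges, with 20.63 CPM of Ciart. In Tam_M_ct34_526, Tam_M_ct38_531 and Tam_M_ct58_562 Ciart lay under all vehicle libraries of the same time. The cause was not tested. Myl7, an atrial myosin light chain, exceeded 20 CPM in 3 tamoxifen libraries, with 724 CPM in Tam_F_ct54_559 and 106 CPM in Tam_M_ct50_550 in the second cycle, and 472 CPM in Tam_M_ct34_526 in the first, and in 10 vehicle libraries. Library Tam_F_ct54_559 also went against its letter, with 0.272 CPM of Xist and 11.3 CPM of the Y-linked Ddx3y. The other 23 tamoxifen F libraries held 194 to 409.7 CPM of Xist and at most 0.117 CPM of Ddx3y. The 24 tamoxifen M libraries held at most 0.3165 CPM of Xist and 121.7 to 199.2 CPM of Ddx3y. In Tam_F_ct54_559 Xist thus lay in the M range, while Ddx3y lay between the F and M ranges. The clock and rhythm results are also given without the low-Arntl libraries.

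The 3 promoter windows printed here show the elements through which the loop works and belong to clock genes whose cycle means differed most or most regularly. Each window runs from 250 bases before to 50 bases after a RefSeq gene start (build GRCm38.p6), 5′ to 3′ on the gene's own strand, and capitals mark the E-box CACGTG or the D-box TTATGTAA (TTACATAA on the other strand). The Ciart window (chr3:95882179-95882478, minus strand) holds 3 E-boxes, the Per3 window (chr4:151044616-151044915, minus strand) holds 2 D-boxes, and 1 of the 2 Tspan4 windows (chr7:141476130-141476429, plus strand) holds 1 E-box.
Ciart: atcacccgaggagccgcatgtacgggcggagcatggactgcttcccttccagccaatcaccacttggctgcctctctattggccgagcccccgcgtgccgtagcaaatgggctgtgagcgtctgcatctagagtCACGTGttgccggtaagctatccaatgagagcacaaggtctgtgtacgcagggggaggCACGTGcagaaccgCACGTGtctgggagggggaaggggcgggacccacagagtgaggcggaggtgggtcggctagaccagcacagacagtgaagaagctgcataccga
Per3: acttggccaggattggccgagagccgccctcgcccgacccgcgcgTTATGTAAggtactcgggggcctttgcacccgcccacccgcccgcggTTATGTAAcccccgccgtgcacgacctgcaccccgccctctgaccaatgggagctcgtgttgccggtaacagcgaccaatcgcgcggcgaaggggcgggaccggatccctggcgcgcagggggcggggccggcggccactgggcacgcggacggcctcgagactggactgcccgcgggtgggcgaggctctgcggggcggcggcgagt
Tspan4: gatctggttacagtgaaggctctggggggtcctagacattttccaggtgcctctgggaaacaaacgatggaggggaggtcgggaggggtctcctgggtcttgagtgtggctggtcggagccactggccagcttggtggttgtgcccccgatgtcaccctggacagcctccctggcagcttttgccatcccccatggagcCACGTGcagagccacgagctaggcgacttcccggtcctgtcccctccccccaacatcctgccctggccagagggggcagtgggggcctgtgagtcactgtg
Of the 27 clock genes followed here, 22 had such a window, 8 of them with an E-box and 2 with a D-box in a window. Of all 32851 windows, 7.15% held the E-box and 0.938% the D-box. A match describes the letters in the window and is not a binding site.

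Most clock genes cycled in both cycles, and none passed the test for a change between them. Arntl held 26.7, 28.5, 31.2 and 31.8 CPM in the 4 libraries at ct50, against 24.7, 25.9, 26.98 and 28.1 CPM at ct26, its high time of day. At ct58, near its low, it held 2.76, 4.83, 10.3 and 13.6 CPM, against 4.97, 11.4, 11.6 and 12.6 CPM at ct34. Its peak libraries and its trough libraries did not overlap with each other in either cycle, while the cycles overlapped at both times. The fitted amplitude of Arntl, the distance from mean to peak of a 24 h cosine in log2 CPM, was 0.93 ± 0.14 in the second cycle and 0.82 ± 0.14 in the first (SE). Its fitted peak differed by 0.25 ± 0.90 h, where a positive value means later in the second cycle. Nr1d1, which encodes the repressor REV-ERB alpha, held 88.9, 91.6, 101 and 178 CPM at ct58, against 89.0, 106, 118 and 126 CPM at ct34. Of its 4 second-cycle libraries, 3 lay within the first-cycle range or at its edge and 1 (Tam_F_ct58_565) lay above it. At its low time Nr1d1 held 12.9, 13.6, 14.1 and 15.01 CPM at ct46, against 11.5, 12.6, 13.6 and 14.7 CPM at ct22. Nr1d1 had the smallest p for a rhythm among genes with at least 5 CPM, with an amplitude of 1.54 ± 0.07 in the second cycle and 1.64 ± 0.07 in the first, and a peak that differed by -0.18 ± 0.24 h.

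**Figure D1:**
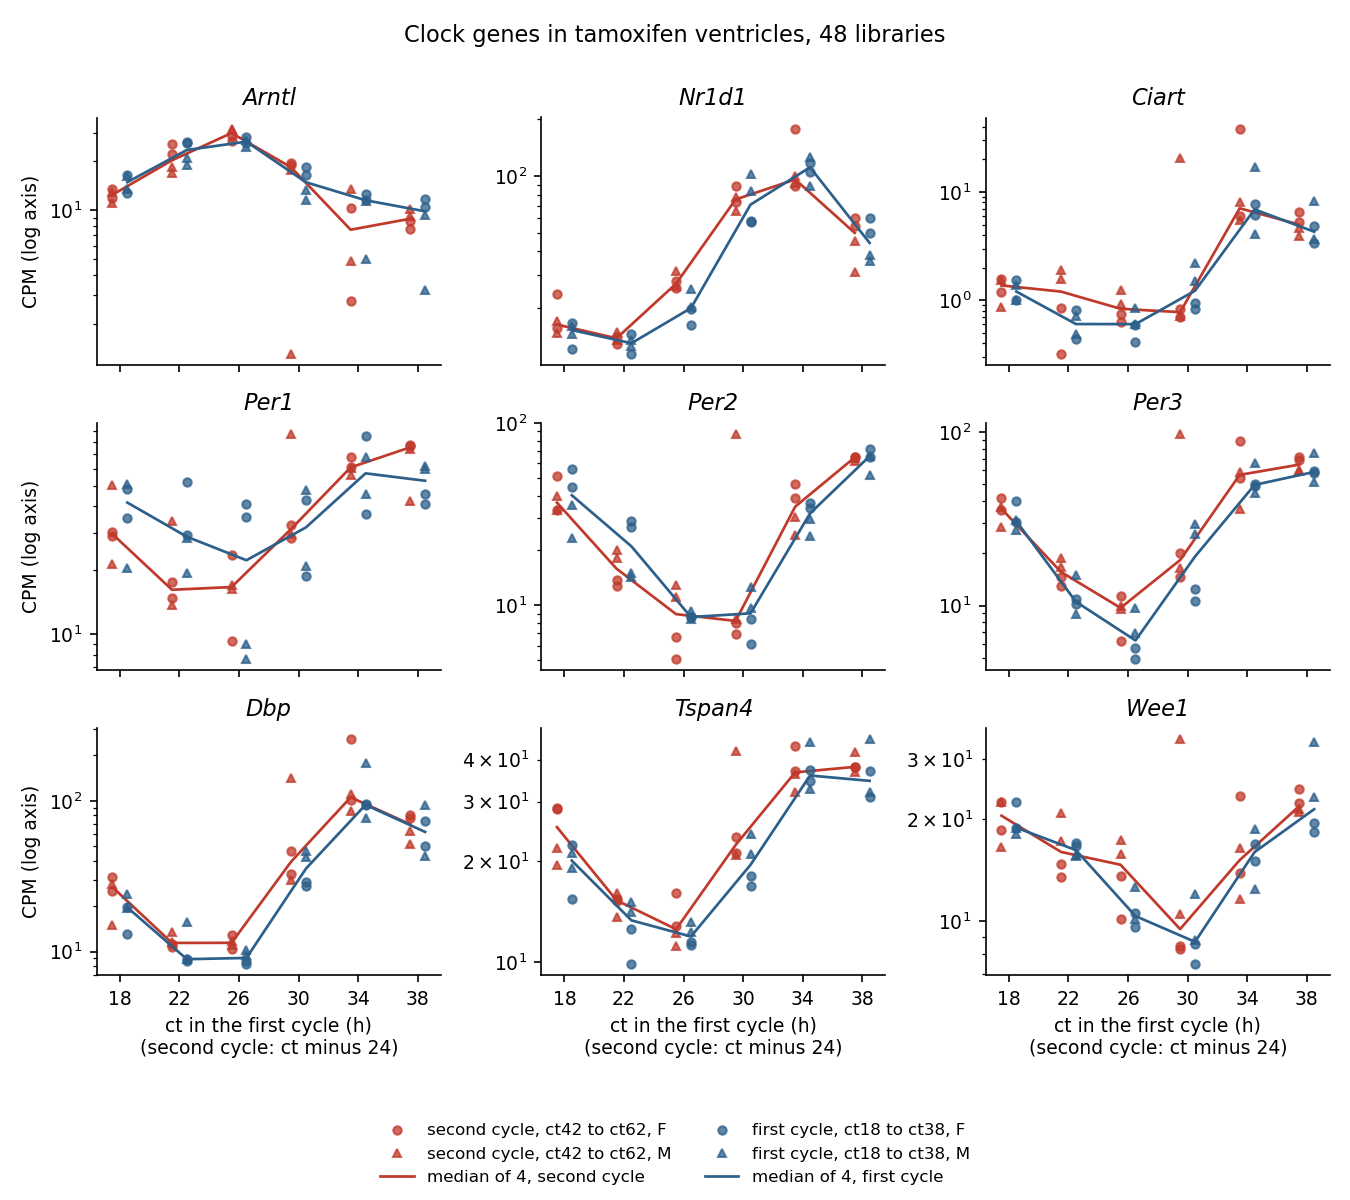
CPM (log axis) of 9 clock genes in each of the 48 tamoxifen libraries by time of day in hours, second cycle in red and first cycle in blue, F as circles and M as triangles, with lines through the medians of 4 libraries. The 2 lines run close together for most genes, and single libraries such as Tam_M_ct54_556 (Per2 87.1 CPM, Arntl 1.31 CPM) stand away from their line.

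Among the repressors, Per2 (a period protein that inhibits CLOCK and BMAL1) reached 61.8, 64.2, 65.3 and 65.4 CPM at ct62, against 52.0, 65.3, 66.2 and 71.7 CPM at ct38. At ct54 it held 6.99, 8.0, 8.40 and 87.1 CPM, against 6.10, 8.39, 9.66 and 12.7 CPM at ct30. The second-cycle values lay within the first-cycle range at ct62, and at ct54 a single library, Tam_M_ct54_556, stood apart. Per2 had an amplitude of 1.32 ± 0.15 in the second cycle and 1.46 ± 0.15 in the first, and its fitted peak differed by -1.33 ± 0.59 h. Per3, a further period gene, averaged 37.0 CPM in the second cycle and 30.5 CPM in the first. This log2 difference of 0.34 ± 0.12 was not called (edgeR quasi-likelihood test with Benjamini-Hochberg adjustment, adjusted p = 0.219), although Per3 was higher in 10 of 12 strata. Ciart, a repressor of CLOCK and BMAL1 whose window holds 3 E-boxes, averaged 4.77 CPM in the second cycle and 2.94 CPM in the first, a log2 difference of 0.57 ± 0.28 (edgeR adjusted p = 0.409). At ct58 Ciart held 5.51, 6.03, 8.09 and 38.2 CPM, against 4.11, 6.11, 7.67 and 17.03 CPM at ct34. The ranges overlapped at that time and Tam_F_ct58_565 gave the highest value. Ciart's amplitude of 2.14 ± 0.29 in the second cycle and 2.15 ± 0.31 in the first was the largest of the 27 genes in both cycles. Per1 showed the amplitudes furthest apart on the higher side, 1.05 ± 0.15 in the second cycle and 0.68 ± 0.15 in the first, with an unadjusted p of 0.125 for the change of rhythm in edgeR's test.

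Of the outputs, Dbp (a D-box transcription factor) held 85.8, 101, 110.3 and 256 CPM at ct58, against 76.7, 93.4, 94.7 and 178 CPM at ct34. The ranges overlapped, with the highest value in each cycle from a single library. Dbp averaged 52.8 CPM in the second cycle and 41.8 CPM in the first (log2 difference 0.33 ± 0.13, edgeR adjusted p = 0.301), and its amplitude was 1.85 ± 0.15 in both. Tspan4, a tetraspanin gene that cycles in many tissues, averaged 25.9 CPM in the second cycle and 23.1 CPM in the first. Its log2 difference of 0.20 ± 0.06 had the smallest adjusted p of the clock genes, 0.168, and was higher in 10 of 12 strata. For Tspan4 and Per3 the M stratum at ct54 was higher only through Tam_M_ct54_556. The other library, Tam_M_ct54_555, held 20.76 CPM of Tspan4 and 16.47 CPM of Per3. The M libraries at ct30 held 20.89 and 24.04 CPM of Tspan4 and 25.75 and 29.34 CPM of Per3. Wee1, a mitotic kinase gene under clock control, had amplitudes of 0.34 ± 0.09 in the second cycle and 0.63 ± 0.10 in the first, with an unadjusted p of 0.0991 for the change of rhythm. None of the 27 clock genes passed the test for a change of mean or of rhythm.

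The number of clock genes higher in the second cycle and the direction of their peak shifts moved with few libraries. The directions of the activating arm and of most outputs did not. With all 48 libraries 16 of the 27 clock genes lay higher in the second cycle and 11 lower, with a median log2 difference of 0.08, and 23 had an earlier fitted peak (median -0.60 h). All 6 genes of the activating arm (Arntl, Clock, Npas2 and the Ror genes) lay lower and all 10 outputs higher, at sizes that did not pass the test. The activating arm also lay lower throughout without Tam_M_ct54_556 and without the 5 libraries under 6 CPM of Arntl. Of the outputs only Hlf turned, from 0.04 with all libraries to -0.02 and -0.01 in these 2 fits. Without Tam_M_ct54_556, 14 of the 27 clock genes lay higher and 13 lower, the median was 0.01, and 14 had an earlier peak (median -0.02 h). Without the 5 libraries under 6 CPM of Arntl, 13 lay higher and 14 lower, and 8 had an earlier peak (median 0.53 h). The Per2 difference was 0.14 with all libraries and -0.04 without Tam_M_ct54_556, and that of Ciart was 0.57 with all libraries and 0.26 without it. Without that library the Per3 difference was 0.21, the Dbp difference 0.20 and the Tspan4 difference 0.14. Amplitudes moved less as a group. A lower fitted amplitude in the second cycle was found in 19 of the 27 clock genes with all libraries and in 17 without Tam_M_ct54_556. The count was 19 without the 5 low-Arntl libraries and 18 without these and the high-Myl7 libraries. Single genes did turn. The Per2 amplitude, second minus first cycle, was -0.14 with all libraries, 0.10 without Tam_M_ct54_556 and 0.13 without the 5 low-Arntl libraries, and the Per2 peak shift was -0.40 h and -0.21 h in these 2 fits. The Wee1 amplitude difference was -0.30 with all libraries, -0.155 without Tam_M_ct54_556 and -0.06 without the 5 libraries. The Arntl peak shift was 0.82 h without Tam_M_ct54_556 and 1.47 h without the 5 libraries. The Nr1d1 amplitude difference was -0.10 with all libraries, -0.11 without Tam_M_ct54_556 and -0.18 without the 5.

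Over all genes, no gene passed the test for a change of rhythm, while the number of genes called rhythmic within each cycle differed and moved with the libraries used. A 24 h rhythm was called in 2180 of 15304 tested genes in the second cycle (14.2%) and in 3567 in the first (23.3%), at an adjusted p under 0.05 in edgeR's quasi-likelihood test with Benjamini-Hochberg adjustment. Of these, 1455 were called in each cycle among the 5687 genes (37.2%) that were rhythmic over both cycles together. Without the 5 libraries under 6 CPM of Arntl, 2699 genes were called in the second cycle and 2903 in the first. Without the 3 libraries over 20 CPM of Myl7, 1743 were called in the second cycle and 3049 in the first, and without both sets 2173 in the second and 2955 in the first. These counts follow 2 thresholds and do not test the difference. The test of the difference itself, on the cosine and sine terms of the second minus the first cycle, called 0 genes (percent called 0), with 934 genes (6.1%) at an unadjusted p under 0.05 and 3 genes called by DESeq2. The genes with the smallest p and at least 5 CPM were Stk39, Relch, Fuca2, Arhgap42 and Cnp. Stk39, a kinase that controls ion cotransporters, had amplitudes of 0.06 in the second cycle and 0.19 in the first (edgeR adjusted p = 0.42), and Arhgap42, a GTPase-activating protein of smooth muscle, had 0.09 in the second cycle and 0.30 in the first.

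**Figure D2:**
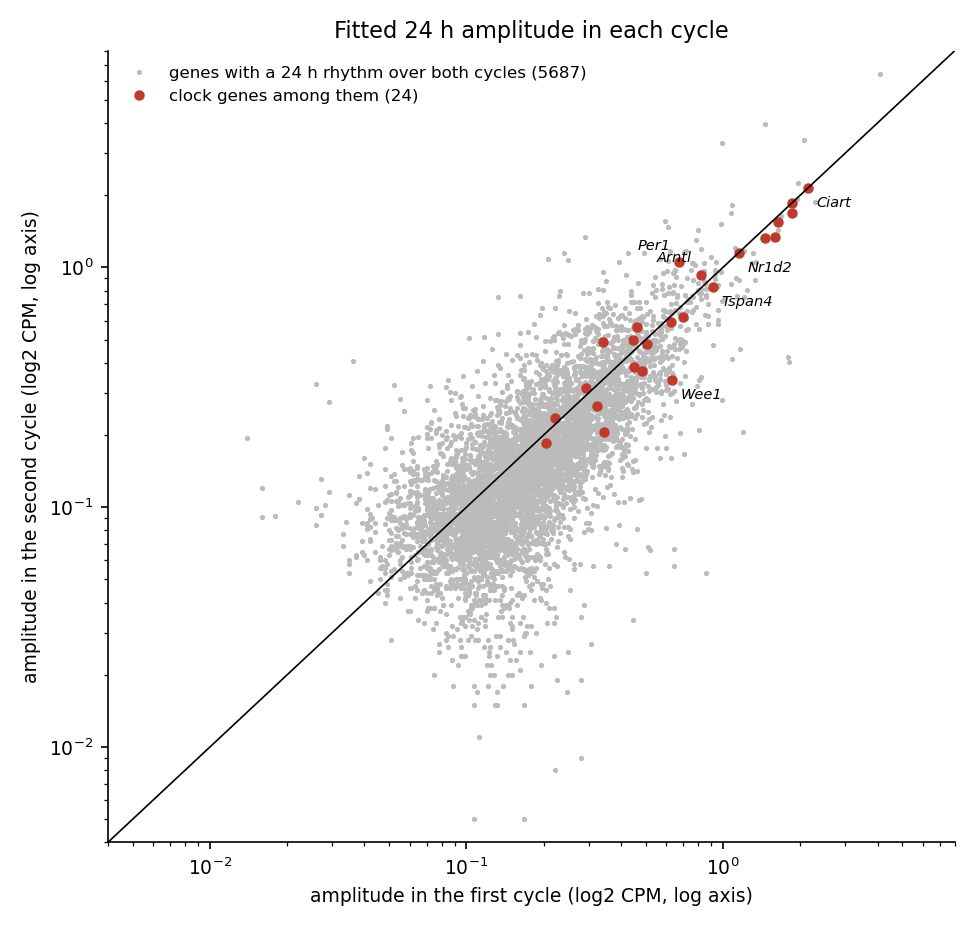
Fitted 24 h amplitude (log2, both axes logarithmic) in the second cycle (vertical) against the first (horizontal) for the 5687 genes rhythmic over both cycles, grey, with the clock genes among them in red and the line of equal amplitude. Of all points 63.5% lie under the line. Of the clock genes, 2 of 4 in the activating arm, 7 of 11 repressors and 8 of 9 outputs lie under it.

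Genes were chosen for a comparison of amplitudes by their mean rhythm over both cycles, a term that is orthogonal to the difference. Of these 5687 genes, 3612 (63.5%) had a lower fitted amplitude in the second cycle. The median ratio of second to first was 0.865 with quartiles of 0.637 and 1.15, and the median amplitudes were 0.145 in the second cycle and 0.170 in the first. Of 252 genes with a mean amplitude of at least 0.5, 46.8% were lower in the second cycle and the median ratio was 1.02. Fitted peaks lay a median of -0.39 h from those of the first cycle, that is earlier. Without the 5 libraries under 6 CPM of Arntl the share with a lower amplitude was 51.15%, the median ratio 0.986 and the median shift 0.158 h. Without these and the 3 libraries over 20 CPM of Myl7 the share was 50.04% and the ratio 0.999. The lower amplitude was seen with these libraries and not without them, and without ct22 and ct46 the ratio was 0.960. Of 3611 genes rhythmic in both treatments, 66.4% had a lower second-cycle amplitude in tamoxifen hearts and 61.6% in vehicle hearts. Their median ratios were 0.845 in tamoxifen and 0.849 in vehicle hearts. Of 9299 genes rhythmic in vehicle hearts, the share was 62.7% in tamoxifen hearts and 67.9% in vehicle hearts (median ratios 0.836 and 0.779). Median peak shifts went opposite ways, -0.34 h in tamoxifen and 1.11 h in vehicle hearts for the 3611 genes, and -0.52 h and 2.67 h for the 9299. The vehicle values include libraries over 20 CPM of Myl7. A change of rhythm within vehicle hearts was called in 3093 genes with such libraries and in 0 without them. The vehicle shares were not taken without them. Genes are not independent replicates, so these shares are descriptions.

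The 12 genes with the smallest p for a rhythm over both cycles and at least 5 CPM held clock members and detoxifying enzymes: Nr1d1, Tspan4, Dbp, Gstt2, Col5a3, Gsta3, Per3, Spon2, Nr1d2, Ephx1, Top1 and Gm12966. Gsta3, a glutathione transferase, had amplitudes of 0.67 ± 0.08 in the second cycle and 0.96 ± 0.08 in the first, with an unadjusted p of 0.0333 for the change (edgeR adjusted p = 0.8). Gstt2, a further glutathione transferase, had 0.65 ± 0.06 in the second cycle and 0.76 ± 0.06 in the first. Col5a3, a fibrillar collagen chain, had 0.95 ± 0.08 in the second cycle and 0.98 ± 0.08 in the first, with peaks -0.20 ± 0.45 h apart. Ephx1, the microsomal epoxide hydrolase, had 0.45 ± 0.05 in the second cycle and 0.53 ± 0.05 in the first, and Top1, a DNA topoisomerase, had 0.23 ± 0.03 in the second cycle and 0.27 ± 0.03 in the first. For the last 4 genes the unadjusted p of the change of rhythm lay between 0.265 and 0.882.

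Few genes were called for a difference in mean level over the day between cycles, and most measured differences were small. Of 15304 tested genes, 18 were called over F and M together (0.118%), 8 higher in the second cycle (0.0523%) and 10 lower (0.0653%). An unadjusted p under 0.05 was found in 1843 genes (12%), where 765 would be expected with no difference in any gene. The number called is therefore not the number of genes that differ. The median log2 difference over all tested genes was 0.00438 and the median size without sign 0.0461. Among the 10930 tested genes with at least 5 CPM the median SE was 0.0406, which gives a 95% interval of 0.0825 on either side, or 1.06-fold, so around a measured difference of 0 such an interval leaves out 1.5-fold. Only 17 tested genes differed by 1.5-fold or more, 8 of them with at least 5 CPM. Of the 18 called genes 17 had the same sign in F and in M. The count moved between 7 (without Tam_M_ct58_562) and 64 (without Tam_M_ct34_526) when 1 library was left out, and 6 of the 15 named genes were called in each of the 48 such fits: Csf2ra, Tubb5, Zmat3, Pygo1, Eif4b and Eif3a. In the 6 fits that each left out 1 time of day, Eif4b was called in 4, Zmat3 in 3, Pygo1 in 2, and Csf2ra, Tubb5 and Eif3a in 1 each. In the GENCODE M21 annotation of GRCm38 these 6 protein-coding genes lie at chr19:61223957-61228429 (Csf2ra), chr17:35833921-35838306 (Tubb5), chr3:32334792-32366014 (Zmat3), chr9:72925645-72952181 (Pygo1), chr15:102073773-102097173 (Eif4b) and chr19:60761117-60790658 (Eif3a).

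Genes that rose in the second cycle included a cytokine receptor, a tubulin and a cytoskeletal protein of smooth muscle. Csf2ra, the alpha chain of the receptor for the growth factor GM-CSF, ran from 6.67 to 11.04 CPM with a median of 8.75 in the second cycle, against 5.91 to 9.93 CPM with a median of 7.24 in the first. The ranges overlapped and the second cycle was higher in 11 of 12 strata. The log2 difference was 0.24 ± 0.05 (edgeR adjusted p = 0.0238). Tubb5, a beta-tubulin, ran from 77.2 to 109.9 CPM with a median of 89.8 in the second cycle, against 69.2 to 92.2 CPM with a median of 82.1 in the first. It was higher in 11 of 12 strata with overlapping ranges (log2 difference 0.17 ± 0.03, edgeR adjusted p = 0.0238). Smtn (smoothelin), a cytoskeletal protein of smooth muscle and striated muscle, ran from 177 to 284 CPM with a median of 235 in the second cycle, against 172 to 233 CPM with a median of 209.9 in the first. The ranges overlapped, 11 of 12 strata were higher, and the log2 difference was 0.17 ± 0.04 (edgeR adjusted p = 0.0358).

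A further 3 named genes rose. Smox (spermine oxidase) ran from 21.8 to 29.5 CPM with a median of 26.4 in the second cycle, against 17.01 to 29.5 CPM with a median of 23.5 in the first. The ranges overlapped and had nearly the same upper end, and the log2 difference was 0.15 ± 0.03 (edgeR adjusted p = 0.0358). Bmp1, a protease that trims procollagens, ran from 42.8 to 57.6 CPM with a median of 48.5 in the second cycle, against 39.2 to 52.97 CPM with a median of 43.9 in the first. Its ranges overlapped and its log2 difference was 0.14 ± 0.03 (edgeR adjusted p = 0.0331). Slc39a3, a zinc importer, ran from 20.3 to 25.9 CPM with a median of 22.6 in the second cycle, against 16.9 to 26.9 CPM with a median of 20.4 in the first. The second-cycle range lay within that of the first, and the log2 difference was 0.14 ± 0.03 (edgeR adjusted p = 0.0331). Each of these 3 genes was higher in 11 of 12 strata. In fits that each left out 1 of the 48 libraries, Smox was called in 25, Bmp1 in 28, Slc39a3 in 31 and Smtn in 23.

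**Figure D3:**
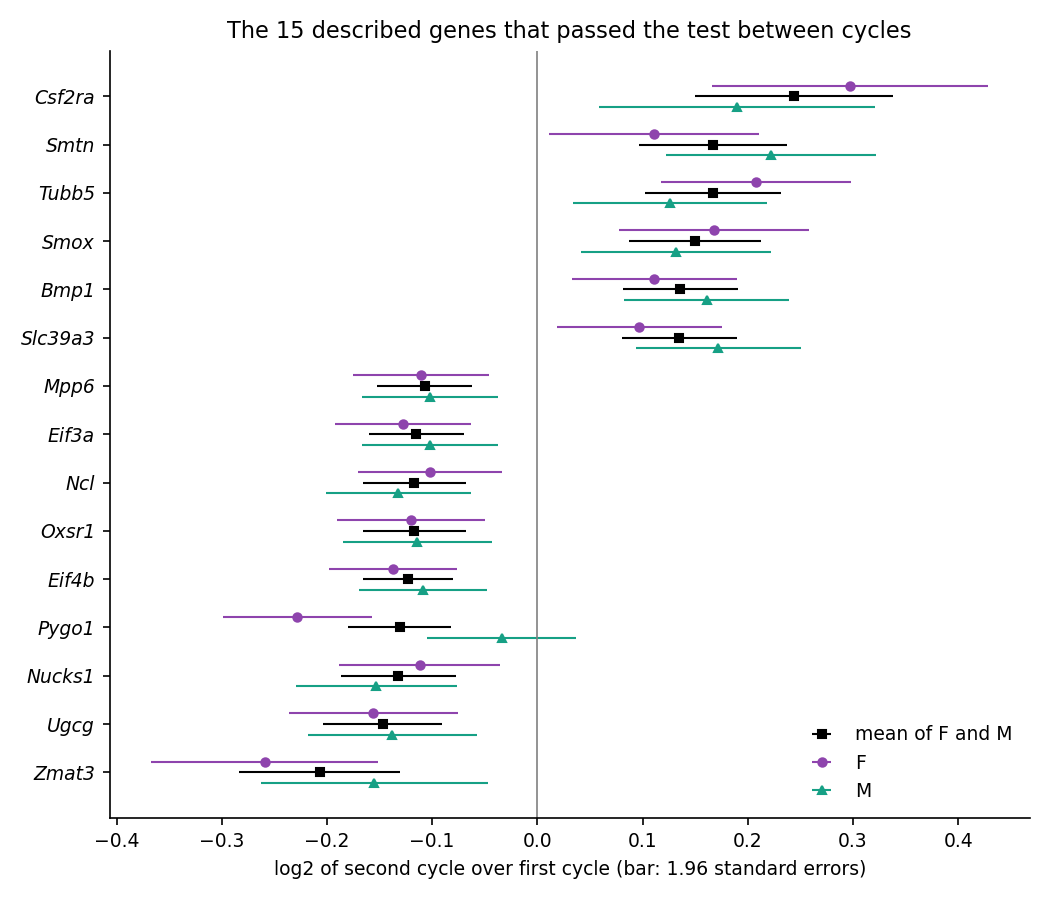
Log2 difference of second over first cycle for the 15 named genes with a called drift, with 95% intervals as bars, for the mean of F and M (black squares), F (purple circles) and M (green triangles). Points lie between about -0.26 and 0.30, and Pygo1 is the gene whose F value (-0.23) and M value (-0.03) lie furthest apart among the genes that fell.

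Genes that fell included translation factors and nucleolar and chromatin proteins. Eif4b, an activator of the translation initiation helicase, ran from 258 to 309.9 CPM with a median of 287 in the second cycle, against 255 to 338 CPM with a median of 312 in the first. It was lower in 11 of 12 strata with overlapping ranges, and fell by 0.12 ± 0.02 on the log2 scale (edgeR adjusted p = 0.012). Eif3a, the largest subunit of the initiation factor that holds the small ribosomal subunit, ran from 305 to 402.8 CPM with a median of 335 in the second cycle, against 321 to 418.2 CPM with a median of 363 in the first. All 12 strata were lower and the ranges overlapped (log2 difference -0.12 ± 0.02, edgeR adjusted p = 0.0297). Ncl (nucleolin), a nucleolar protein of ribosome production, ran from 320.1 to 401 CPM with a median of 365 in the second cycle, against 367 to 491 CPM with a median of 396 in the first. It too was lower in all 12 strata (log2 difference -0.12 ± 0.03, edgeR adjusted p = 0.0331). Nucks1, a nuclear protein that binds chromatin, ran from 78.2 to 103 CPM with a median of 89.5 in the second cycle, against 84.7 to 115 CPM with a median of 98.1 in the first. It was lower in 10 of 12 strata (log2 difference -0.13 ± 0.03, edgeR adjusted p = 0.0331). The wider set of genes with Eif1 to Eif6 symbols, not all of them translation factors, was taken up after these values were seen. The Y-linked Eif2s3y was left out. Of its 52 tested genes 39 lay lower in the second cycle and 13 higher, with a median log2 difference of -0.02. Over all 15304 tested genes 7248 lay lower and 8056 higher, and 10 (0.0653%) were called lower. The 2 called members of the set were Eif4b and Eif3a, the genes that led to it.

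Zmat3, a p53-induced RNA-binding protein, showed the largest fall of the 15 named genes with a called drift. It ran from 9.84 to 16.2 CPM with a median of 13.6 in the second cycle, against 11.2 to 18.1 CPM with a median of 15.8 in the first. All 12 strata were lower, the ranges overlapped, and the log2 difference was -0.21 ± 0.04 (edgeR adjusted p = 0.0237). Ugcg, the enzyme that makes glucosylceramide, ran from 23.4 to 31.0 CPM with a median of 26.2 in the second cycle, against 25.3 to 33.2 CPM with a median of 29.1 in the first. All 12 strata were lower (log2 difference -0.15 ± 0.03, edgeR adjusted p = 0.0243). Pygo1, a nuclear cofactor of Wnt signalling, ran from 36.5 to 59.4 CPM with a median of 48.1 in the second cycle, against 39.3 to 64.7 CPM with a median of 52.0 in the first. It was lower in 10 of 12 strata (log2 difference -0.13 ± 0.03, edgeR adjusted p = 0.0238). Oxsr1, a kinase of ion transport, ran from 95.3 to 124 CPM with a median of 110.4 in the second cycle, against 107 to 131 CPM with a median of 120 in the first. Mpp6, a membrane scaffold protein, ran from 61.9 to 78.2 CPM with a median of 68.7 in the second cycle, against 66.3 to 85.1 CPM with a median of 72.4 in the first. Both were lower in 11 of 12 strata with overlapping ranges, Oxsr1 by a log2 difference of -0.12 ± 0.03 (edgeR adjusted p = 0.0358) and Mpp6 by -0.11 ± 0.02 (edgeR adjusted p = 0.0421). In the fits that left out 1 of the 48 libraries, Ugcg was called in 47, Nucks1 and Ncl in 39 each, Oxsr1 in 24 and Mpp6 in 22.

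The falls depended on how libraries were scaled more than the rises did. Scaled by library size alone, Zmat3 was the only one of the 9 named lower genes that stayed called, and the others had adjusted p-values of 0.0512 to 0.0973, while the 6 named higher genes stayed called. The calls over all genes then split 41 higher and 2 lower, against 8 higher and 10 lower with TMM scaling. When all 96 libraries shared the estimate of spread, only Zmat3, Ugcg and Nucks1 of the 15 stayed called. Without the low-Arntl and high-Myl7 libraries together, Csf2ra, Tubb5, Zmat3, Pygo1, Eif4b and Eif3a stayed called and the other 9 had adjusted p-values of 0.059 to 0.11. The 3 called genes that are not named by the rule in the methods are a predicted gene, a Riken clone and a Y-linked gene, and are named here after their values were seen. Gm10435 averaged 101 CPM in the second cycle and 85.3 CPM in the first (log2 difference 0.24 ± 0.05, edgeR adjusted p = 0.0297), and 2900097C17Rik averaged 411 CPM in the second cycle and 452.4 CPM in the first (log2 difference -0.14 ± 0.02, edgeR adjusted p = 0.000431). The Y-linked Eif2s3y, a translation factor subunit, held 9.94 CPM in Tam_F_ct54_559 and at most 0.0656 CPM in the other tamoxifen F libraries, and its F difference of 5.81 rested on that library (M difference -0.06).

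**Figure D4:**
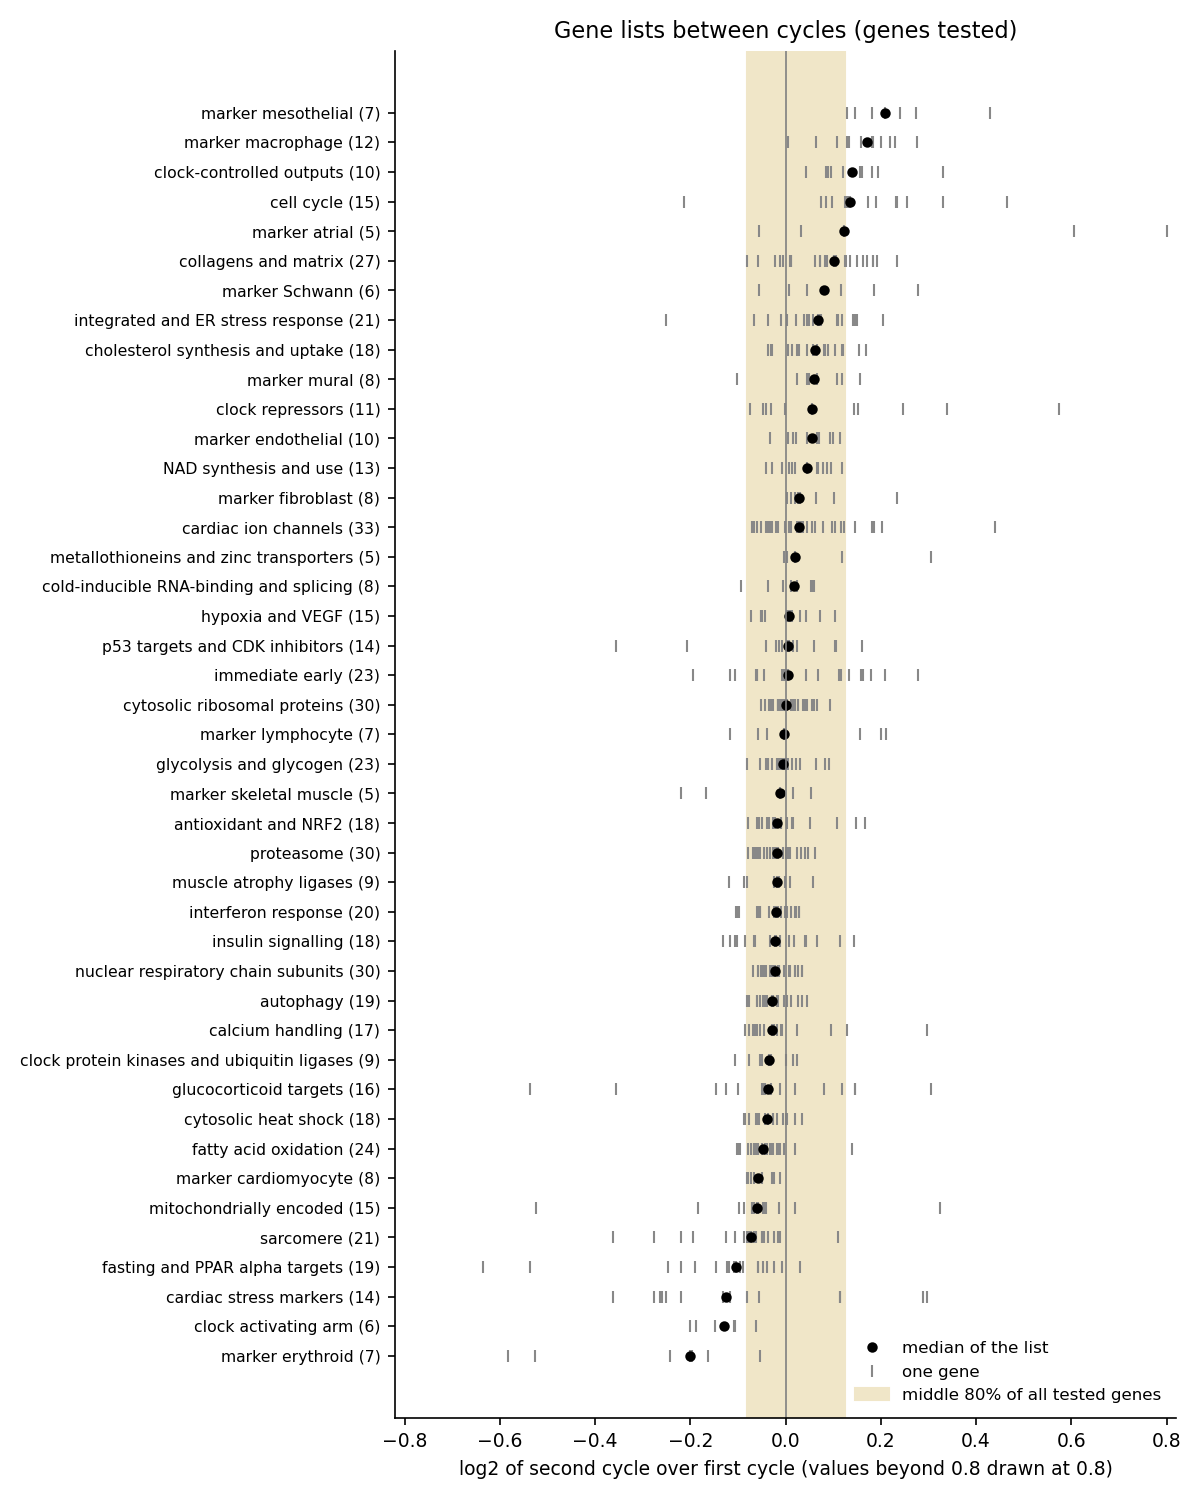
Log2 difference of second over first cycle for each tested gene (grey ticks) of each gene list with at least 5 tested genes, with the list's median (black) and the middle 80% of all tested genes (shaded). Macrophage, mesothelial, cell cycle and matrix medians lie to the right, and fasting, erythroid and cardiac stress medians to the left.

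Gene groups of the heart leaned without passing the test gene by gene. Beside them stand 8056 tested genes that lay higher in the second cycle and 7248 lower, with a median of 0.00438. Of 19 tested fasting and PPAR alpha targets, 18 lay lower and 1 higher with a median of -0.10, and 7 lower at an unadjusted p under 0.05, where 5.51% of all tested genes were lower at that threshold. Pdk4, the kinase that shuts pyruvate out of oxidation during fasting, ran from 186 to 2076 CPM with a median of 398 in the second cycle, against 270.3 to 2671 CPM with a median of 696 in the first. The ranges overlapped almost wholly, 9 of 12 strata were lower, and the log2 difference was -0.64 ± 0.17 (edgeR adjusted p = 0.0994). Fatty acid oxidation enzymes lay lower in 22 of 24 and higher in 2, with a median of -0.05. Among them Acadm, the medium-chain acyl-CoA dehydrogenase, chosen after its values were seen, averaged 1529 CPM in the second cycle and 1635 CPM in the first (log2 difference -0.10 ± 0.03, edgeR adjusted p = 0.18). Of 21 sarcomere genes 20 lay lower (median -0.07), and of 8 cardiomyocyte markers all 8 (median -0.06).

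Macrophage markers and matrix genes lay mostly higher, and no gene of either list was called. All 12 macrophage markers lay higher, with a median of 0.17 and 5 at an unadjusted p under 0.05, where 6.53% of all tested genes were higher at that threshold. Cd68, a macrophage lysosomal protein, ran from 5.15 to 10 CPM with a median of 7.27 in the second cycle, against 4.01 to 9.35 CPM with a median of 6.44 in the first. The ranges overlapped, 11 of 12 strata were higher, and the log2 difference was 0.28 ± 0.07 (edgeR adjusted p = 0.09). The summed level of the 12 markers was 208 to 348 CPM in the second cycle and 150 to 388 CPM in the first, so the ranges overlapped. Csf2ra, which rose, is also expressed by macrophages, and the part of these cells in its rise was not tested. Mural cell markers, which include smooth muscle genes, lay higher in 7 of 8 (median 0.06), with a summed level of 958 to 1327 CPM (median 1113) in the second cycle and 996.3 to 1346 CPM (median 1147) in the first. Their part in the rise of Smtn was not tested. Endothelial markers lay higher in 9 of 10 (median 0.055). Of 27 collagen and matrix genes 22 lay higher (median 0.10, 9 higher at an unadjusted p under 0.05, against the same 6.53%), among them Col1a1, the main fibrillar collagen chain, at 66.0 CPM in the second cycle and 55.6 CPM in the first (log2 difference 0.23 ± 0.08, edgeR adjusted p = 0.168). Of 15 cell cycle genes 14 lay higher (median 0.14). All 8 fibroblast markers lay higher with a median of 0.03, all 7 mesothelial markers higher with a median of 0.21 and all 7 erythroid markers lower with a median of -0.20, none of them at an adjusted p under 0.05. Lymphocyte markers were split 3 higher and 4 lower (median -0.003). The p53 list held the only called member of any list, Zmat3, with 8 of its 14 genes higher and 6 lower. No marker of lung or thymus passed the filter on low counts.

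No gene of the following groups was called. Of 33 tested cardiac ion channel genes 21 lay higher and 12 lower (median 0.03). Of 17 calcium handling genes 13 lay lower (median -0.03), and of 14 cardiac stress markers 10 lay lower (median -0.12). Acta1, the skeletal actin re-expressed in stressed hearts, averaged 177 CPM in the second cycle and 199.5 CPM in the first (log2 difference -0.22 ± 0.20, edgeR adjusted p = 0.713). Cytosolic ribosomal protein genes were split 16 higher and 14 lower of 30 (median 0.00), proteasome genes 10 higher and 20 lower of 30 (median -0.02), and nuclear respiratory chain genes 7 higher and 23 lower of 30 (median -0.02). Genes of the integrated and endoplasmic reticulum stress response lay higher in 17 of 21 (median 0.07) and cholesterol genes higher in 15 of 18 (median 0.06). Insulin signalling genes lay lower in 11 of 18 (median -0.02), autophagy genes lower in 14 of 19 (median -0.03) and cytosolic heat shock genes lower in 14 of 18 (median -0.04).

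Taken one time of day at a time, 4 second-cycle libraries stood against 4 first-cycle libraries. The test called 0 genes at ct42 against ct18, at ct46 against ct22, at ct50 against ct26, at ct54 against ct30 and at ct62 against ct38 (percent called 0 at each), with 774, 997, 1113, 1441 and 653 genes at an unadjusted p under 0.05 in that order of times. At ct58 against ct34 edgeR called 2 genes (0.0131%), both lower. Serinc3, a membrane serine incorporator, held 283.07, 310.35, 530.83 and 552.73 CPM at ct58, against 558.98, 584.09, 596.01 and 600.55 CPM at ct34. All 4 second-cycle libraries lay under the first-cycle libraries, and the 2 M libraries lay far under the 2 F libraries (log2 difference -0.55 ± 0.07, edgeR adjusted p = 0.000127). Pkig, an inhibitor of protein kinase A, held 67.9, 71.1, 144 and 166 CPM at ct58, against 126, 136, 142 and 189 CPM at ct34. Only the 2 M libraries lay under the first-cycle range (log2 difference -0.51 ± 0.09, edgeR adjusted p = 0.0384), and the call for Pkig was lost in 7 of the 8 fits that left out 1 library of these times. A test of whether the 6 changes were equal called 0 genes, with 995 (6.5%) at an unadjusted p under 0.05.

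The change between cycles was also set between F and M hearts. Within F hearts edgeR called 2 genes (0.0131%), both lower, Pygo1 and 2900097C17Rik. Within M hearts it called 0 (percent called 0), with 1551 genes (10.1%) at an unadjusted p under 0.05 and 4 called by DESeq2. The difference itself, F minus M, called 0 genes with edgeR, with 1497 (9.78%) at an unadjusted p under 0.05 and 1 called by DESeq2. The genes with the smallest p and at least 5 CPM were Pgam1, Sh3bgrl2, Eif4enif1, Foxk2 and Slc35e2. Pgam1, a glycolytic mutase, had log2 differences of -0.21 in F and 0.10 in M (edgeR adjusted p of the difference = 0.165). Pygo1 differed by -0.23 in F and -0.03 in M.

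**Figure D5:**
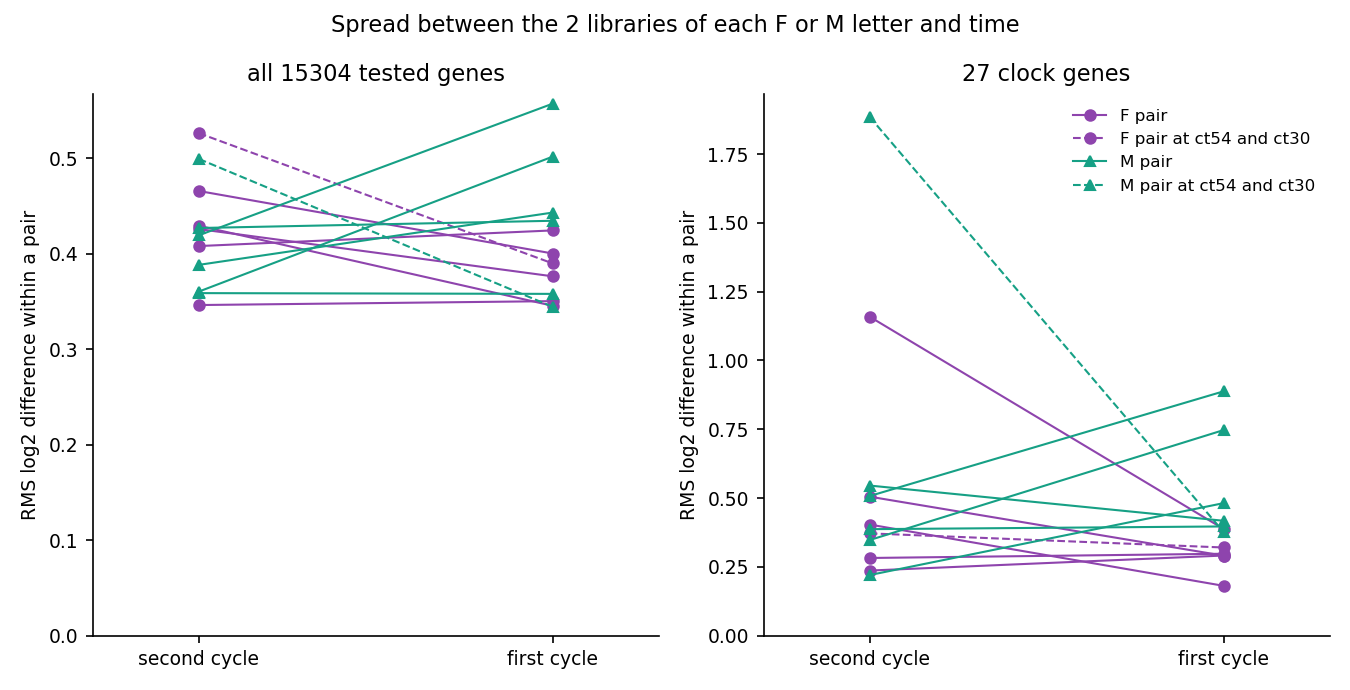
Root mean square log2 difference between the 2 libraries of the same letter and time, second cycle left and first cycle right, each line 1 of 12 strata (F purple circles, M green triangles, ct54 with ct30 dashed), over all tested genes and over the 27 clock genes. Lines cross in both directions, and for the clock genes the M pair at ct54 (1.89) stands highest.

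Libraries of the same letter and time were about as far apart in the second cycle as in the first. The root mean square log2 difference between such a pair, over all tested genes, averaged 0.421 ± 0.0554 in the second cycle and 0.411 ± 0.0663 in the first (SD over 12 strata). Pairs were further apart in the second cycle in 6 of 12 strata, and the difference of 0.0108 gave p = 0.705 in an exact two-sided sign-flip permutation test. For the 27 clock genes the same measure averaged 0.571 in the second cycle and 0.423 in the first. This average was led by 2 second-cycle pairs, the M pair at ct54 with 1.89 and the F pair at ct58 with 1.16, and the highest first-cycle pairs were M at ct34 with 0.888 and M at ct38 with 0.747. Each of these 4 pairs holds a library under 6 CPM of Arntl.

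Vehicle hearts were used to see whether the change between cycles was larger under tamoxifen. The difference of the drifts, tamoxifen minus vehicle, called 0 of 16076 tested genes (percent called 0), with 782 (4.86%) at an unadjusted p under 0.05 in edgeR, the tool run for it. The smallest p-values at 5 CPM or more belonged to Ccdc181, Pcnx4, Magee1, Nr1d2 and Per3. Nr1d2, which encodes REV-ERB beta, had a log2 difference of second over first cycle of 0.24 in tamoxifen hearts and -0.17 in vehicle hearts (difference 0.42 ± 0.12, edgeR adjusted p = 0.941). Per3 had 0.34 in tamoxifen hearts and -0.22 in vehicle hearts (difference 0.56 ± 0.16, edgeR adjusted p = 0.941). Neither passed the threshold over all genes. For the change of rhythm, tamoxifen minus vehicle, 2 genes were called (0.0124%), with 3107 (19.3%) at an unadjusted p under 0.05. Of these Mfsd12, a lysosomal cysteine transporter, had amplitudes under tamoxifen of 0.13 in the second cycle and 0.07 in the first, and under vehicle of 0.07 in the second cycle and 0.19 in the first (edgeR adjusted p = 0.044). In the same 96-library model the change of rhythm within vehicle hearts was called in 3093 genes (19.2%) and within tamoxifen hearts in 0 (percent called 0; 689 genes at an unadjusted p under 0.05). The vehicle count was 0 without the libraries over 20 CPM of Myl7, and 8 without the vehicle M libraries high in counts of TEC genes, a GENCODE class.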

How the data were processed

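RNA was measured in 96 ventricle libraries, of which 48 (tamoxifen) were compared with each other and 48 (vehicle) served one further comparison. RNeasy extraction, poly-A selection, Illumina mRNA Prep libraries and NovaSeq sequencing are given per the labels' protocols. The values as deposited by the authors are whole-number counts of reads per gene with no normalization. The submitters' processing notes name HISAT2, Picard and HTSeq and the builds GRCm38 and mm10, with versions not given in the sources used here. Counts per gene do not separate isoforms, and poly-A selection leaves out most RNAs without a tail.

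All 96 columns matched 1 title each and 0 stayed unmapped. Of 55376 genes in the table, 54486 had a symbol in GENCODE M21. A further 26 entries look like dates, held 0.1345% of the counts, and were kept but not named. Tamoxifen libraries held 10144623 to 19353081 counts, so a gene with 0 counts may still hold up to 3 counts' worth of RNA, counting error alone considered. Among the 24 pairs of libraries of 1 letter and time the chi-square per gene was 3.86 to 30.7 (genes of 20 counts or more), so none was taken as a duplicate.

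Tests used edgeR 4.0.16 in R 4.3.3 (limma 3.58.1): filterByExpr by group with a minimum count of 10, TMM scaling, glmQLFit and glmQLFTest, and Benjamini-Hochberg adjustment over all tested genes with a threshold of 0.05. The drift is the second minus the first cycle with a stratum for each letter and time of day. Rhythms were fitted as a 24 h cosine and sine per letter and cycle, and SEs of amplitudes and peaks come from the delta method with the 2 terms taken as independent. Changes at single times used a mean per letter and time. The comparisons with vehicle used all 96 libraries. CPM are TMM-scaled, except in the checks of single libraries (Arntl, Ciart, Myl7, Xist and Ddx3y), where they are raw. Alternatives were RLE or library-size scaling, no filter, DESeq2 1.42.0, terms for title numbers of 574 and above, and leaving out libraries or times. The edgeR tests of drift, change of rhythm and change at a single time were tried on simulated counts, and the other steps were not. Promoter windows come from RefSeq (GRCm38.p6).

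Members, gene lists and tests were chosen with earlier results of these data known. The named genes are the clock genes, the called genes with at least 5 CPM (up to 10 in each direction), the 5 smallest p where under 5 were called, and of each other list its called members or else the one with the largest difference. Symbols of predicted, Riken and Y-linked genes were left out of this naming, and 1 gene that the rule names is not reported here.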

Additional observations from a re-analysis of the deposited data

Results flagged for a closer look

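The change of rhythm between cycles differed between tamoxifen and vehicle hearts in Mfsd12 and in the predicted gene Gm30262, each at an adjusted p of 0.044 in edgeR's quasi-likelihood test. Under the alternatives the Mfsd12 value ran from 0.0132 with no filter on low counts to 0.486 without the libraries over 20 CPM of Myl7.

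Libraries were also looked over for 1 value far from the others of its time. In 84 groups of 4 libraries (7 clock genes at 12 times) Dixon's test at 95% found such a library in 11. In 6 of the 11 it was library Tam_M_ct54_556. The 7 genes were measured in the same libraries and cycle together, and each group mixed F and M libraries. The groups are therefore not independent, and the count is not set against a chance rate. In that library Arntl held 1.31 CPM (nearest other library 17.8), Per2 87.1 CPM (8.40), Per3 97.1 CPM (20.1), Ciart 20.6 CPM (0.837), Dbp 141 CPM (46.2) and Tspan4 42.3 CPM (23.5). Library Tam_F_ct58_565 held 38.2 CPM of Ciart (8.09), 178 CPM of Nr1d1 (101) and 256 CPM of Dbp (110.3). Library Tam_M_ct34_526 held 4.97 CPM of Arntl (11.4), and Tam_M_ct22_576 held 15.6 CPM of Dbp (8.94). The cause was not tested.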

How the results depend on the processing

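The numbers of called genes moved with the processing. Of 15304 tested genes the 18 drift calls (8 higher, 10 lower) became 18 with RLE size factors, 43 with library size alone (41 higher, 2 lower), 132 with DESeq2, 7 when all 96 libraries shared the spread and 385 with no filter on low counts. Of these 385, 360 were among the genes that pass the filter. With no filter the median prior degrees of freedom became infinite. The median spread used for the genes that pass the filter then equalled that of the prior drawn across genes (0.706). Without 1 time of day the count was 4 (ct18 and ct42), 1 (ct22 and ct46), 2 (ct26 and ct50), 5 (ct30 and ct54), 75 (ct34 and ct58) and 4 (ct38 and ct62). Leaving out 1 library moved it between 7 and 64. It was 7 without Tam_M_ct58_562, 8 without Tam_F_ct42_542, 9 without Tam_F_ct46_601, 10 without Tam_F_ct30_524, Tam_M_ct22_507, Tam_M_ct30_580 or Tam_M_ct50_550, 11 without Tam_F_ct22_510, Tam_F_ct30_581 or Tam_F_ct54_559, 31 without Tam_F_ct54_558 or Tam_F_ct58_595, 34 without Tam_F_ct34_583, 38 without Tam_M_ct18_502 and 64 without Tam_M_ct34_526.

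Within F the 2 calls became 31 with library size alone (28 higher, 3 lower), 7 with all 96 libraries, 551 with no filter, 42 with DESeq2 and 7 without the low-Arntl libraries, and without 1 time of day 1, 0, 1 and 36 for the pairs that start at ct18, ct22, ct26 and ct34. Leaving out 1 library gave 2 to 45 (4 without Tam_F_ct30_581, 7 without Tam_F_ct42_541, Tam_F_ct58_595 or Tam_M_ct34_526, 21 without Tam_F_ct34_583 and 45 without Tam_F_ct54_558). Within M the 0 calls became 257 with no filter and 4 with DESeq2, and 0 to 1 without 1 library (1 without Tam_M_ct34_582). F minus M gave 401 with no filter, 1 with DESeq2 and 0 to 4 without 1 library (4 without Tam_F_ct54_558).

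The change of rhythm gave 491 calls with no filter, 3 with DESeq2 and 1 without ct22 and ct46 or without ct38 and ct62. Rhythm calls in the second cycle became 1271 without ct18 and ct42 and 1069 without ct38 and ct62, and those in the first 2118 without ct34 and ct58 and 2365 without ct38 and ct62. With no filter the 6 times of day in order gave 99, 217, 192, 522, 266 and 99 calls, and the test of equal changes 835. At ct54 against ct30 the count was 1 without the low-Arntl libraries and 1 without these and the high-Myl7 ones, and 0 to 106 without 1 library (65 without Tam_M_ct54_555, 106 without Tam_F_ct54_558). At ct58 against ct34 it was 1 without the low-Arntl, the high-Myl7 or both sets, and 1 to 17 without 1 library (1 without Tam_F_ct22_511, Tam_F_ct34_530, Tam_F_ct34_583, Tam_F_ct54_559, Tam_F_ct58_565, Tam_M_ct34_526, Tam_M_ct58_562 or Tam_M_ct58_594, 5 without Tam_F_ct58_595 and 17 without Tam_M_ct34_582). At ct62 against ct38 it was 0 to 1 without 1 library (1 without Tam_M_ct38_584). The test of equal changes gave 1 with library size alone, 1 without both sets, and 0 to 8 without 1 library (1 without Tam_F_ct46_589 or Tam_F_ct58_595, 6 without Tam_M_ct54_555, 8 without Tam_F_ct54_558). Tamoxifen minus vehicle gave 137 drift calls with no filter. Its 2 rhythm calls became 0 with library size alone, without Tam_F_ct54_559, without Tam_M_ct54_556, without the low-Arntl or without the high-Myl7 libraries, 1 without the vehicle M libraries high in counts of TEC genes, and 1377 with no filter.

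Directions turned in the following results. The spread difference of 0.0108 between pairs became -0.0163 without the strata of Tam_F_ct54_559 and Tam_M_ct54_556. The median peak shift of -0.389 h became 0.158 h without the low-Arntl libraries, 0.115 h without both sets, 0.0348 h without ct22 and ct46 and 0.143 h without ct30 and ct54. The median amplitude ratio of strong rhythms, 1.02, became 0.974 without the high-Myl7 libraries, 0.976 with a term for title number, 0.968 without Tam_F_ct54_559 and 1.05 without Tam_M_ct54_556 (the 2 libraries left out singly for it), and 0.992, 0.965, 0.963 and 0.979 without the pairs that start at ct22, ct26, ct30 and ct38. The Per1 difference of -0.03 became 0.015 without ct18 and ct42, 0.088 without ct22 and ct46 and -0.106 to 0.024 without 1 library, and the Per2 difference of 0.14 became -0.05 without the low-Arntl libraries, -0.052 without both sets, -0.025 without ct30 and ct54 and -0.036 (without Tam_M_ct54_556) to 0.176 without 1 library. Beyond the settings whose construction shows the reason, the cause was not tested. No paired analysis was possible because the numbers in the titles differ for every library and pair none of them. Depth limits genes of few counts: the median SE of the drift was 0.0496 over all 15304 tested genes and 0.0406 over the 10930 with at least 5 CPM.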

Other observations

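Of 23 immediate early genes, which respond within minutes to growth and stress signals, 14 were rhythmic over both cycles and 2 of these had a lower fitted amplitude in the second cycle, with a median ratio of second to first of 1.68. The mean levels split 13 higher and 10 lower (median 0.00). No gene of this list was called for a change of mean or of rhythm, and 7 of the 23 had an unadjusted p under 0.05 for the change of rhythm, against 6.1% of all tested genes. Nr4a2, an orphan nuclear receptor, had amplitudes of 0.81 in the second cycle and 0.34 in the first (unadjusted p = 0.0157), and Egr1, a growth-response zinc finger, 1.09 in the second cycle and 0.57 in the first (unadjusted p = 0.0368). Atf3, a stress-induced repressor, had 0.20 in the second cycle and 0.68 in the first (unadjusted p = 0.028, all 3 from edgeR). These 3 genes were chosen after their values were seen.

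The low Serinc3 and Pkig values at ct58 came from Tam_M_ct58_562 and Tam_M_ct58_594. In the other 46 tamoxifen libraries Serinc3 was at 469.6 CPM or more. Among 10 genes with at least 5 CPM within 500000 bases of Serinc3 on chromosome 2 (GRCm38, GENCODE M21), 3 neighbouring genes lay in both libraries under every other tamoxifen library. Relative to the median of the other 46 libraries, Ttpal (163602314 to 163619013) stood at 0.402 in Tam_M_ct58_562 and 0.451 in Tam_M_ct58_594, with 0.775 to 1.31 elsewhere. Serinc3 (163623272 to 163645131) stood at 0.494 and 0.542 in these 2 libraries, with 0.82 to 1.33 elsewhere, and Pkig (163658386 to 163726158) at 0.489 and 0.467, with 0.844 to 1.32 elsewhere. The flanking Fitm2 and Ccn5 lay within the range of the other libraries. The cause was not tested.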
